A study of Mus musculus with 15 samples.

Results

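The 10 genes described here are published targets of the microRNA miR-210: Iscu, Gpd1l, Ndufa4, Efna3, Acvr1b, Ptpn1, Sdhd, Cox10, Casp8ap2 and E2f3. They were found by matching the numeric gene IDs of the count table to these mouse symbols, and all 10 of 10 had values, of 17892 genes with values in all. All 10 passed the filter on low counts, which left 14853 genes for testing. RNA had been sequenced from PDGFRβ-positive cells isolated from mouse brain. PDGFRβ is a receptor of pericytes, the mural cells that wrap brain capillaries. The groups were 4 libraries from miR-210 knockout (KO) mice 24 h after neonatal hypoxic-ischemic injury (HI), 4 from wild-type (WT) mice 24 h after the same injury, 4 from KO sham mice and 3 from WT sham mice. The labels give no exact age, strain or way of isolation. Nor do they state if each library came from its own animal, so p-values measure the spread between libraries, which may be technical. The mature microRNA was not measured, and the table holds no line for its gene, so the knockout was not checked from these counts.

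miR-210 is a microRNA that hypoxia-inducible factors switch on when oxygen is low. A microRNA guides a silencing complex to messenger RNAs that pair with its seed, bases 2 to 8 from its 5′ end, and this lowers their translation, their stability or both. miR-210 is known above all for genes of mitochondrial respiration, and its targets were reported mostly in human cells. A target released from silencing in a knockout would be higher in KO than in WT, and the comparison of KO with WT in sham and after HI addresses that.

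The sequences that define a match are shown first, because they separate the 10 genes. The mature microRNA is given from RefSeq (GRCm38.p6, chromosome 7, minus strand) with the seed in capitals.
mmu-miR-210-3p: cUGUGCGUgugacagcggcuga
The reverse complement of this seed, ACGCACA on the sense strand, was searched in the longest annotated 3′ UTR of each gene in GENCODE M21 transcripts (GRCm38; the notes of the submitters name mm39). It was present in 3 of the 10 genes and in 646 of 21037 genes with an annotated 3′ UTR, 3.07% of them. The 10 UTRs had a median length of 1516.5 bases, against 960.0 for all genes.

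Gpd1l held 3 full matches, Acvr1b 1 and Efna3 1, and 6.16%, 5.38% and 3.47% of genes with UTRs within 20% of the same length held one. Each site is shown with 20 or 21 bases before it and 3 after it, the match in capitals, so that the letters can be set against the seed above.
Gpd1l, bases 181 to 187 of the UTR: ggtaacaactacagacacacACGCACAtga
Gpd1l, bases 1600 to 1606: gggatgtcgacctcagtgaaACGCACActa
Gpd1l, bases 1892 to 1898: tataaagtcccacacctaaaACGCACAgca
Acvr1b, bases 1573 to 1579: caaaaattctccagactcaaACGCACAtag
Efna3, bases 765 to 771: gtgaagacaggacctatgcaACGCACAgac
The sites of Gpd1l were in 2 of its 3 annotated coding transcripts and that of Efna3 in 1 of 2. Shorter matches were found in Ndufa4 (bases 2 to 7 of the microRNA and an A after the match) and in E2f3 (bases 2 to 7 alone).
Ndufa4, bases 54 to 60: aaggtctttcagaagccatcCGCACAAttt
E2f3, bases 165 to 170: aattaattttttttttctaagCGCACAgtt
No run CGCACA was found in the annotated 3′ UTRs of Iscu, Ptpn1, Sdhd, Cox10 and Casp8ap2; Ptpn1 had 1 full match in its coding sequence. A match is a description of letters, not a measured site, and its absence says only that these letters are not in the annotated window.

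None of the 10 genes was called different between KO and WT by the edgeR quasi-likelihood test, whether after HI or in sham. After HI 0 of 10 passed an adjusted p (Benjamini-Hochberg) of 0.05, against 12.4% of all genes tested, and the smallest adjusted p among them was 0.101. In sham 0 of 10 were called, against 0.0135% of all genes, with a smallest adjusted p of 0.477. At an unadjusted p under 0.05 there were 4 of the 10 after HI, where 31.2% of all genes passed, and 2 of the 10 in sham, where 8.56% did. DESeq2 called 0 of 10 in both, where it called 22.9% of all genes after HI and 0.215% in sham. KO was above WT in 8 of 10 genes in each comparison, against 56.3% of all genes after HI and 56.2% in sham. The median log2 fold change of the 10 was 0.28 after HI and 0.24 in sham, and that of all genes 0.06 and 0.05. Without 5 libraries described next, the median of the 10 was 0.20 after HI and 0.08 in sham. That of all genes was then -0.012 after HI and 0.008 in sham.

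The makeup of the libraries moved with genotype and with several of these genes. The mean level of 12 neuron markers was 2.97 to 6.46 log2 CPM (counts scaled to a normalized library size) in KO sham 1 and 3, KO HI 2 and 3 and WT sham 2, and 0.21 to 2.01 in the other 10 libraries. All 12 microglia markers were called higher in KO than in WT after HI, with group means of 8.83 ± 0.48 and 6.93 ± 0.67 log2 CPM (SD, n = 4 each). Of 15 pericyte markers 6 and of 12 endothelial markers 8 were called lower in KO after HI. Over all genes 5.96% were called higher and 6.46% lower there. In sham 0 markers of these 3 lists were called, where 0.0135% of all genes were. Yet 0 of 15 pericyte and 0 of 12 endothelial markers were above 0 in KO over WT in sham (medians -0.74 and -0.48). All 12 microglia markers were above 0 in sham (median 0.71). Pdgfrb, the receptor the cells were isolated for, had 194 to 596 CPM in KO HI, 751 to 1050 in WT HI, 251 to 785 in KO sham and 688 to 987 in WT sham libraries. In bulk RNA fewer cells of a type and less RNA per cell cannot be told apart. The part of these shifts in the results below was not tested. Astrocyte, oligodendrocyte lineage and choroid plexus markers also had positive medians in KO over WT, of 1.69, 4.24 and 1.88 log2 units after HI and 2.41, 2.26 and 1.001 in sham, with 0 called. For each gene, values follow from a fit that drops these 5 neuron-marker-high libraries, which leaves 2 KO libraries per group, and from a fit with neuron and choroid plexus marker levels as covariates. The choroid plexus level was 5.41 to 9.82 log2 CPM in KO HI, 2.76 to 7.44 in WT HI, 2.84 to 9.20 in KO sham and 5.07 to 8.01 in WT sham libraries.

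**Figure D1:**
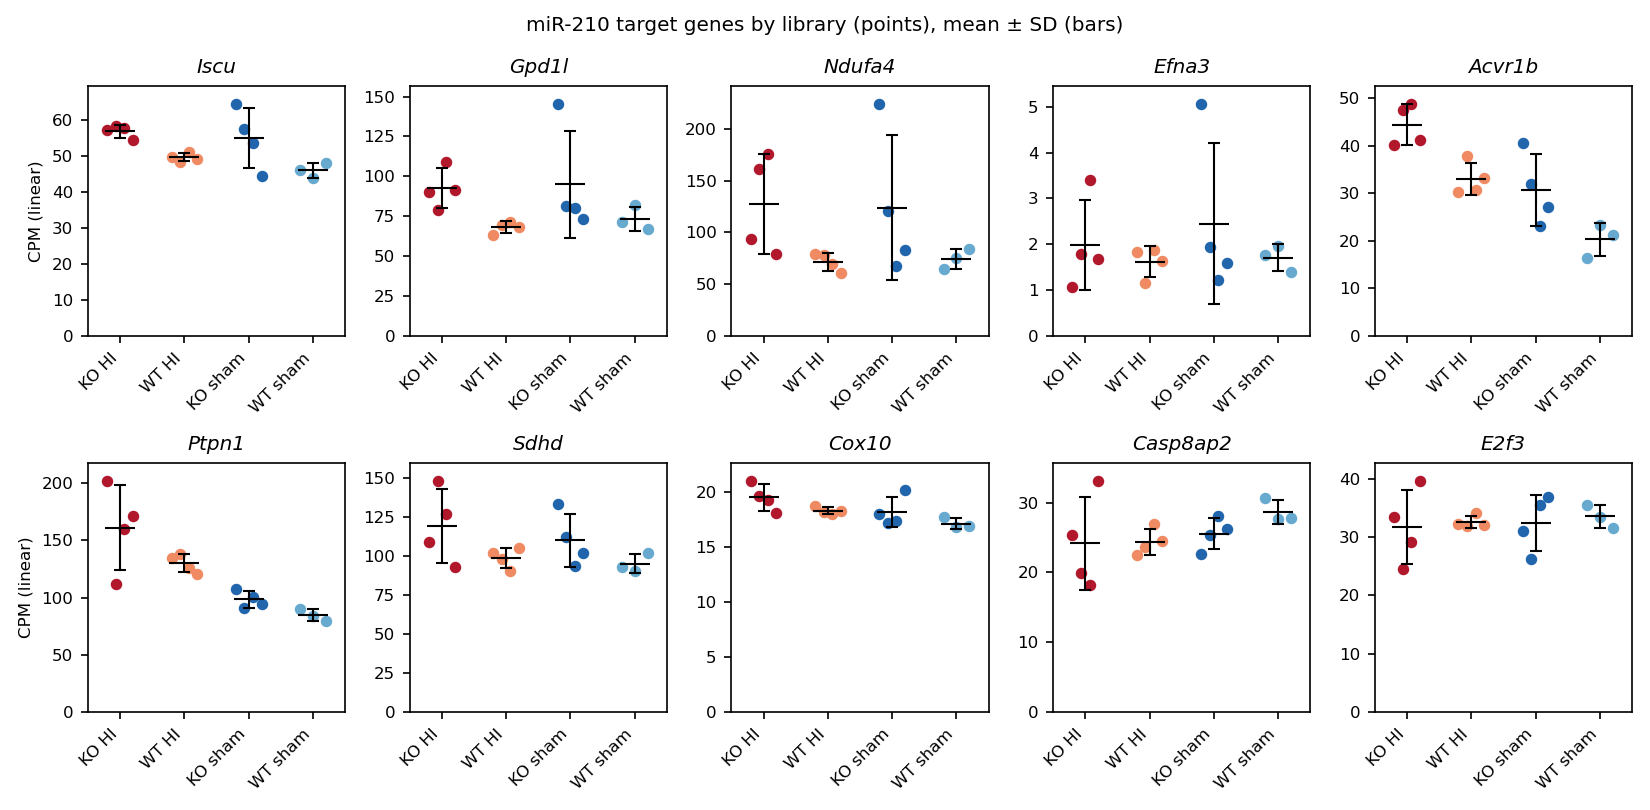
CPM (linear axis) of the 10 genes in each of the 15 libraries, 1 point per library, with the mean and SD of each group. Ptpn1 and Acvr1b stand higher after HI in both genotypes. In Ndufa4 the libraries KO HI 2 and 3 and KO sham 1 and 3 lie above the others. In Gpd1l and Efna3 KO sham 1 is the highest and KO HI 3 the next.

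The metabolic targets come first. Iscu (Gene ID 66383) encodes the scaffold on which mitochondria assemble iron-sulfur clusters, the cofactors of respiratory complexes and aconitase. It had 57.1, 58.4, 57.8 and 54.3 CPM in KO HI libraries 1 to 4, against 49.8, 48.3, 51.0 and 49.2 CPM in WT HI libraries 1, 2, 4 and 5. Every KO HI library was above every WT HI library, which 9.89% of all genes also showed. The log2 fold change was 0.20 ± 0.09 (SE, adjusted p = 0.170), with a 95% interval from 0.997-fold to 1.32-fold. In sham it had 64.3, 57.6, 53.5 and 44.5 CPM in KO libraries 1, 3, 4 and 6, against 46.0, 43.9 and 48.1 CPM in WT libraries 1 to 3. The groups overlapped, KO sham 1 being the highest and KO sham 6 lying within the WT range (log2 fold change 0.26 ± 0.10, adjusted p = 0.477). Without the 5 neuron-marker-high libraries the log2 fold change was 0.15 ± 0.08 after HI and 0.05 ± 0.09 in sham, and with the covariates 0.13 ± 0.10 and 0.21 ± 0.10. Of the 30-base words of its longest transcript 25.1% also occur in transcripts of other genes, 17.6% in Gm16437, so some of its reads may have been shared.

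Gpd1l (Gene ID 333433), a relative of cytosolic glycerol-3-phosphate dehydrogenase whose loss was reported in human cells to lower prolyl hydroxylase activity toward HIF-1α, carries the 3 full matches shown above. KO HI libraries 1 to 4 had 90.3, 79.0, 109 and 91.6 CPM, against 63.2, 69.6, 71.4 and 68.1 CPM in WT HI libraries 1, 2, 4 and 5. Every KO HI library was above every WT HI library, as in 9.89% of all genes. The log2 fold change was 0.44 ± 0.19 (adjusted p = 0.128, interval 1.03-fold to 1.79-fold). Without the 5 neuron-marker-high libraries it was 0.40 ± 0.07 and passed the test (adjusted p = 0.00745), as 23.5% of all genes did in that fit. With the covariates it was 0.26 ± 0.14 and did not pass (adjusted p = 0.242). Neither fit takes microglia markers into account. Their mean level was 9.52 and 8.78 log2 CPM in KO HI 1 and 4, which the first fit keeps, and 6.53 to 7.93 in WT HI. The part of microglia in the Gpd1l difference was not tested. Gpd1l also passed in a fit of the HI groups alone (adjusted p = 0.0355) and without KO sham 1 (adjusted p = 0.00850). Its adjusted p over all 23 alternatives ran from 0.00745 to 0.311. KO sham libraries 1, 3, 4 and 6 had 145, 81.0, 80.1 and 73.4 CPM, against 71.4, 81.7 and 66.7 CPM in WT sham libraries 1 to 3. KO sham 1, the library with the highest neuron markers, stood alone and the rest overlapped (log2 fold change 0.37 ± 0.20, adjusted p = 0.477). Without KO sham 1 the log2 fold change in sham was 0.10 ± 0.11, without the 5 libraries 0.15 ± 0.08 and with the covariates 0.17 ± 0.15.

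Ndufa4 (Gene ID 17992), a small subunit that was first assigned to complex I and later to cytochrome c oxidase, showed the largest log2 fold changes of the 10. It had 93.6, 161, 176 and 78.9 CPM in KO HI libraries 1 to 4, against 79.2, 77.9, 69.7 and 60.3 CPM in WT HI libraries 1, 2, 4 and 5. The 2 KO HI libraries with high neuron markers, 2 and 3, were the high ones, and KO HI 4 lay within the WT range. The log2 fold change was 0.83 ± 0.34 (adjusted p = 0.122), and 0.24 ± 0.15 (adjusted p = 0.289) without the 5 libraries and 0.21 ± 0.14 with the covariates. Without KO sham 1 it was 0.82 ± 0.26 and passed (adjusted p = 0.0376), in a fit that called 24.4% of all genes. KO sham libraries 1, 3, 4 and 6 had 224, 121, 67.2 and 83.3 CPM, against 64.5, 75.0 and 83.8 CPM in WT sham libraries 1 to 3. Here KO sham 1 and 3 were high and KO sham 4 and 6 lay within the WT range (log2 fold change 0.73 ± 0.37, adjusted p = 0.477). Without the 5 libraries this difference was 0.01 ± 0.18, and with the covariates 0.24 ± 0.15.

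**Figure D2:**
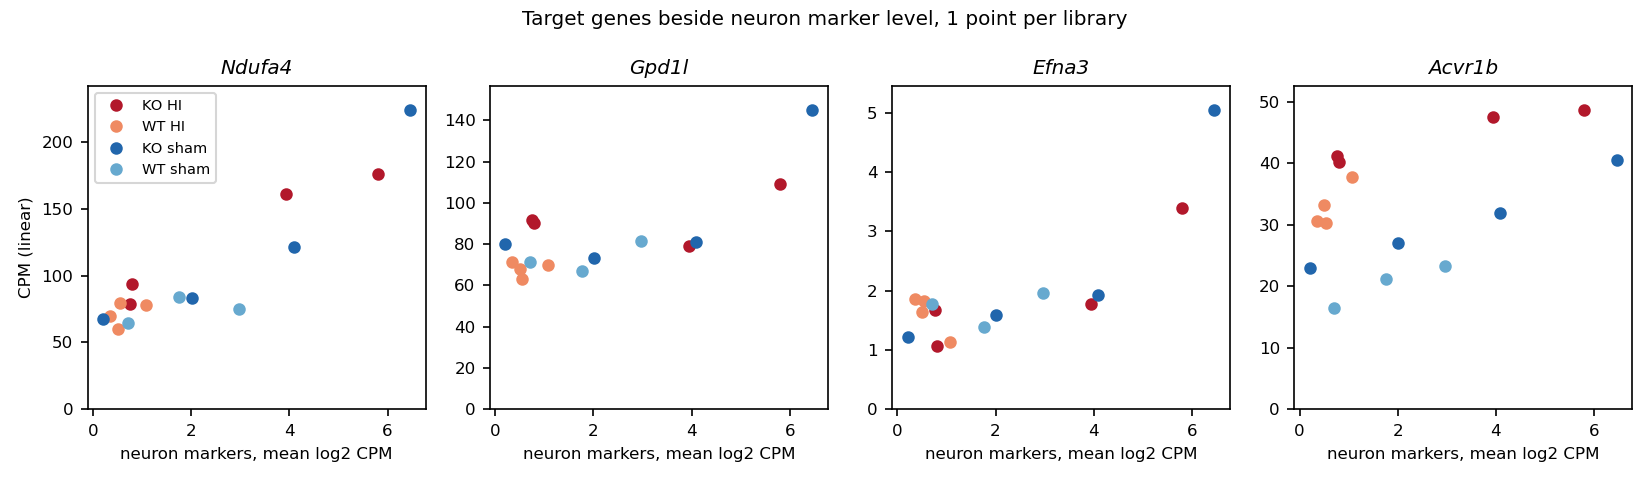
CPM of 4 of the genes (vertical, linear) against the mean log2 CPM of 12 neuron markers (horizontal), 1 point per library, coloured by group. The 4 KO libraries with the highest neuron markers have 121 to 224 CPM of Ndufa4, and the other 11 libraries 60.3 to 93.6 CPM.

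Sdhd (Gene ID 66925) is a membrane anchor of succinate dehydrogenase, complex II. KO HI libraries 1 to 4 had 109, 148, 127 and 93.0 CPM, against 102, 97.8, 90.1 and 105 CPM in WT HI libraries 1, 2, 4 and 5. KO HI 2 and 3 were again the highest and the groups overlapped. The log2 fold change was 0.28 ± 0.14 (adjusted p = 0.193), and 0.01 ± 0.09 without the 5 neuron-marker-high libraries and 0.08 ± 0.10 with the covariates. In sham it had 133, 112, 93.3 and 102 CPM in KO libraries 1, 3, 4 and 6, against 92.7, 90.6 and 102 CPM in WT libraries 1 to 3, a log2 fold change of 0.21 ± 0.15 (adjusted p = 0.514). In sham it was -0.0028 ± 0.11 without the 5 libraries and 0.12 ± 0.11 with the covariates.

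Cox10 (Gene ID 70383) makes heme O, a step toward the heme A of cytochrome c oxidase, and had the smallest standard errors of the 10. It had 21.0, 19.6, 19.3 and 18.1 CPM in KO HI libraries 1 to 4, against 18.7, 18.2, 18.0 and 18.3 CPM in WT HI libraries 1, 2, 4 and 5. KO sham libraries 1, 3, 4 and 6 had 18.0, 17.2, 17.4 and 20.2 CPM, against 17.7, 16.8 and 16.9 CPM in WT sham libraries 1 to 3. The log2 fold changes were 0.09 ± 0.08 after HI and 0.09 ± 0.09 in sham (adjusted p = 0.465 and 0.634). Their 95% intervals reached 1.21-fold and 1.22-fold at most, so larger increases lay outside them. Dropping the 5 neuron-marker-high libraries gave 0.07 ± 0.10 and 0.11 ± 0.11, and with the covariates 0.10 ± 0.09 and 0.10 ± 0.10.

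The signalling targets follow. Acvr1b (Gene ID 11479), the activin type I receptor ALK4, carries 1 full match and had 40.2, 47.6, 48.7 and 41.2 CPM in KO HI libraries 1 to 4. WT HI libraries 1, 2, 4 and 5 had 30.3, 37.8, 30.7 and 33.2 CPM. Every KO HI library was above every WT HI library, as in 9.89% of all genes. The log2 fold change was 0.43 ± 0.16, with the smallest adjusted p of the 10, 0.101. In a fit of the HI groups alone it passed (adjusted p = 0.0421), as it did without KO sham 1 (adjusted p = 0.0404). Without the 5 neuron-marker-high libraries the value was 0.28 ± 0.13 (adjusted p = 0.158), and 0.19 ± 0.10 (adjusted p = 0.194) with the covariates. In sham Acvr1b had 40.5, 32.0, 23.0 and 27.1 CPM in KO libraries 1, 3, 4 and 6, against 16.4, 23.3 and 21.1 CPM in WT libraries 1 to 3. KO sham 4 lay within the WT range and the other KO libraries above it. The log2 fold change of 0.60 ± 0.18 had an interval from 1.16-fold to 1.98-fold and an adjusted p of 0.477. It was between 0.41 and 0.79 under all 23 alternatives, none of which called it, and was 0.41 ± 0.16 without the 5 libraries and 0.46 ± 0.10 with the covariates.

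Ptpn1 (Gene ID 19246) encodes PTP1B, a phosphatase that turns off the insulin receptor and JAK2. KO HI libraries 1 to 4 had 202, 112, 160 and 171 CPM, against 135, 138, 126 and 121 CPM in WT HI libraries 1, 2, 4 and 5. KO HI 2 was the lowest of all 8 and the other 3 KO libraries were above every WT library. The log2 fold change was 0.31 ± 0.14 (adjusted p = 0.150). Without KO HI 2 it was 0.45 ± 0.10 and passed (adjusted p = 0.0134). Without the 5 neuron-marker-high libraries it was 0.50 ± 0.09 (adjusted p = 0.00806), and with the covariates 0.38 ± 0.14 (adjusted p = 0.0827). Neither fit takes microglia markers into account. Their mean level was 9.52, 8.41, 8.61 and 8.78 log2 CPM in KO HI libraries 1 to 4. In WT HI libraries 1, 2, 4 and 5 it was 6.64, 7.93, 6.64 and 6.53. The part of microglia in the Ptpn1 difference was not tested. In sham the KO libraries 1, 3, 4 and 6 had 108, 91.2, 101 and 94.4 CPM, each above the 90.4, 84.3 and 79.6 CPM of WT libraries 1 to 3. Such a separation upward was seen in 4.63% of all genes; the log2 fold change was 0.22 ± 0.15 (adjusted p = 0.511), 0.20 ± 0.11 without the 5 libraries and 0.23 ± 0.15 with the covariates.

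Efna3 (Gene ID 13638), an ephrin-A ligand reported as a miR-210 target in human endothelial cells, was near the lower limit of measurement, with 19 to 69 counts per library. It had 1.07, 1.78, 3.39 and 1.68 CPM in KO HI libraries 1 to 4, against 1.83, 1.14, 1.86 and 1.64 CPM in WT HI libraries 1, 2, 4 and 5. KO HI 3 was high and KO HI 1 the lowest of the 8. In sham KO libraries 1, 3, 4 and 6 had 5.05, 1.93, 1.22 and 1.59 CPM, against 1.77, 1.96 and 1.38 CPM in WT libraries 1 to 3. The log2 fold changes were 0.29 ± 0.45 after HI and 0.51 ± 0.49 in sham (adjusted p = 0.668 and 0.602). Both intervals ran past 2-fold, 0.627-fold to 2.38-fold and 0.690-fold to 2.95-fold. The sign turned without the 5 neuron-marker-high libraries, to -0.25 ± 0.33 and -0.17 ± 0.38, and with the covariates, to -0.35 ± 0.26 and -0.15 ± 0.27, and none was called. Without KO HI 3 alone the value after HI was -0.10 ± 0.45.

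The growth and death targets were called in neither comparison, with KO libraries on both sides of the WT libraries after HI. Casp8ap2 (Gene ID 26885), or FLASH, binds caspase-8 and is needed to process histone messenger RNA. It had 25.4, 19.9, 18.2 and 33.1 CPM in KO HI libraries 1 to 4, against 22.5, 23.6, 26.9 and 24.5 CPM in WT HI libraries 1, 2, 4 and 5. KO HI 4 was the highest and KO HI 2 and 3 the lowest. KO sham libraries 1, 3, 4 and 6 had 22.7, 25.3, 28.1 and 26.2 CPM, against 30.7, 27.6 and 27.8 CPM in WT sham libraries 1 to 3. The log2 fold changes were -0.01 ± 0.16 and -0.17 ± 0.17 (adjusted p = 0.958 and 0.627). After HI the sign turned to 0.24 ± 0.12 (adjusted p = 0.185) without the 5 neuron-marker-high libraries and to 0.16 ± 0.12 with the covariates; in sham these fits gave -0.11 ± 0.14 and -0.04 ± 0.13.

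E2f3 (Gene ID 13557), a transcription factor that drives entry into S phase, had 33.4, 24.6, 29.2 and 39.6 CPM in KO HI libraries 1 to 4. WT HI libraries 1, 2, 4 and 5 had 32.2, 31.9, 34.1 and 32.1 CPM. In sham it had 31.0, 26.2, 35.4 and 36.8 CPM in KO libraries 1, 3, 4 and 6, against 35.5, 33.5 and 31.6 CPM in WT libraries 1 to 3. KO libraries lay on both sides of the WT range in each comparison. The log2 fold changes were -0.04 ± 0.14 and -0.05 ± 0.15 (adjusted p = 0.858 and 0.874), with intervals of 0.791-fold to 1.20-fold after HI and 0.772-fold to 1.21-fold in sham. In the fit that drops the 5 libraries the sign turned to 0.14 ± 0.09 after HI and 0.10 ± 0.10 in sham, and with the covariates the values were 0.10 ± 0.11 and -0.0048 ± 0.12, none called.

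**Figure D3:**
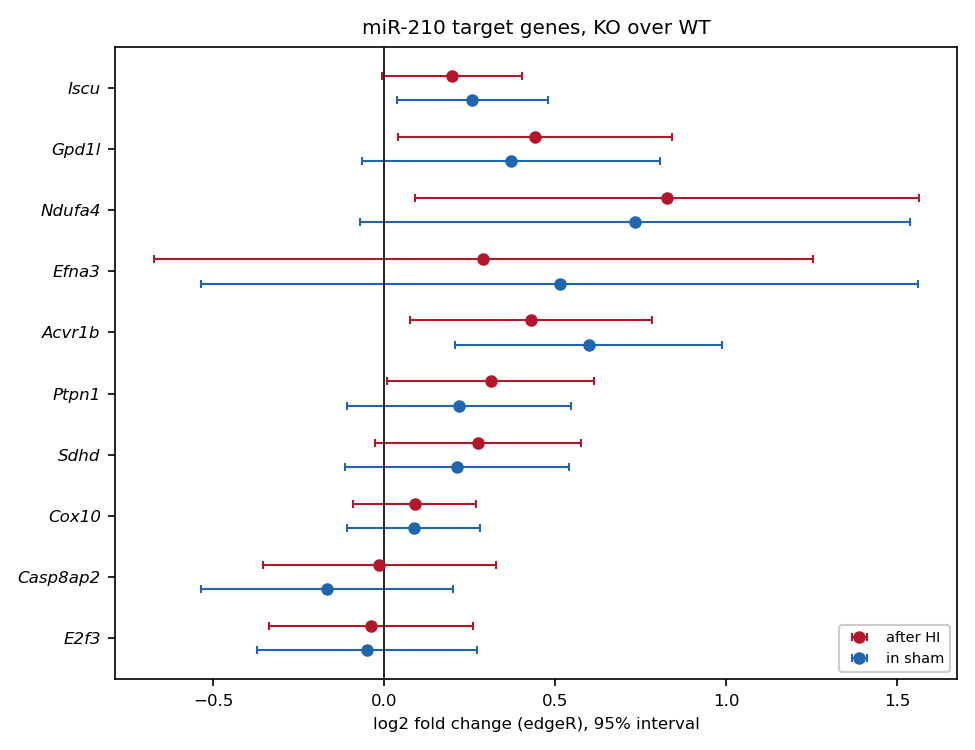
Log2 fold change of KO over WT with its 95% interval for each of the 10 genes, after HI (red) and in sham (blue). No adjusted p is under 0.05; the intervals of Ndufa4 and Efna3 extend past 1 log2 unit and those of the other 8 genes do not.

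The intervals set what sizes these libraries allow. In both comparisons of KO with WT, 8 of 10 intervals lay between a 2-fold decrease and a 2-fold increase, and Ndufa4 and Efna3 were the exceptions. Among genes with a full match Gpd1l and Acvr1b had log2 fold changes of 0.44 and 0.43 after HI and Efna3 0.29. The 7 genes without a full 3′ UTR match had 0.83 (Ndufa4), 0.31 (Ptpn1), 0.28 (Sdhd), 0.20 (Iscu), 0.09 (Cox10), -0.01 (Casp8ap2) and -0.04 (E2f3). Without the 5 libraries the genes with a full match had 0.40 (Gpd1l), 0.28 (Acvr1b) and -0.25 (Efna3) after HI. The 7 others had 0.24 (Ndufa4), 0.50 (Ptpn1), 0.01 (Sdhd), 0.15 (Iscu), 0.07 (Cox10), 0.24 (Casp8ap2) and 0.14 (E2f3) in that fit. Over all genes tested, 541 had a full match in the 3′ UTR. Their median log2 fold change was 0.057 after HI, with 27 called higher and 33 lower, against a median of 0.062 for the 13968 genes with an annotated UTR and no full match, of which 840 were called higher and 913 lower. In sham the medians were 0.054 and 0.045, with 0 called among the 541 genes.

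The HI comparison called 1 signalling target. Ptpn1 rose in KO cells after HI: 202, 112, 160 and 171 CPM in KO HI against 108, 91.2, 101 and 94.4 CPM in KO sham, with no overlap, as in 6.06% of all genes. The log2 fold change was 0.71 ± 0.14 (edgeR adjusted p = 0.0121), and Ptpn1 was the only 1 of the 10 called, where 7.01% of all genes were called and 4.88% called higher. In a fit of the KO groups alone it was 0.68 ± 0.16 and did not pass (adjusted p = 0.117). With the library number added to the fit as a block it was 0.72 ± 0.16 and did not pass (adjusted p = 0.0914). In WT cells it had 135, 138, 126 and 121 CPM in HI against 90.4, 84.3 and 79.6 CPM in sham. Those groups did not overlap either, and 15.9% of all genes were so separated upward in this comparison. The log2 fold change was 0.62 ± 0.15 with an adjusted p of 0.0614, where 1.82% of all genes were called. None of the 10 was called in WT, and 2 of them, Ptpn1 and Acvr1b, had an unadjusted p under 0.05, as 12.8% of all genes did. DESeq2 called Ptpn1 in WT (adjusted p = 0.00447), where it called 5.26% of all genes. Ptpn1 was also called in 7 of the other 22 alternatives, fits that called 1.9% to 17.1% of all genes.

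Acvr1b had 30.3 to 37.8 CPM in WT HI against 16.4 to 23.3 CPM in WT sham libraries, without overlap, as 15.9% of all genes also showed. Its log2 fold change was 0.70 ± 0.18 (adjusted p = 0.0689). In KO cells it had 40.2 to 48.7 CPM in HI against 23.0 to 40.5 CPM in sham, where KO sham 1 overlapped, and the log2 fold change was 0.54 ± 0.16 (adjusted p = 0.0687). DESeq2 called it in both (adjusted p = 0.0116 in WT and 0.0338 in KO), where it called 5.26% and 13.0% of all genes. It was called in both also without the 5 neuron-marker-high libraries, at 0.82 ± 0.14 in WT and 0.69 ± 0.16 in KO (adjusted p = 0.0175 and 0.0222), fits in which 5.13% and 16.8% of all genes were called. Without KO sham 1 alone it was called in both too (adjusted p = 0.0238 in WT and 0.0148 in KO), beside 3.75% and 13.0% of all genes. Of the 23 alternatives 6 called Acvr1b in WT and 5 in KO. With the library number as a block it was called in neither (edgeR adjusted p = 0.181 in WT and 0.273 in KO).

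The other 8 genes had log2 fold changes between -0.30 and 0.12 in KO and between -0.24 and 0.11 in WT, none of them called. Iscu and Cox10 in WT HI were above every WT sham library with log2 fold changes of 0.11 ± 0.10 and 0.10 ± 0.09, and Casp8ap2 below every one at -0.24 ± 0.17, where 15.9% and 15.8% of all genes were so separated upward and downward. By edgeR no response to HI was called different between KO and WT among the 10 genes, and 0.0% of all 14853 genes were called. At an unadjusted p under 0.05 there were 768 genes (5.17%), none of the 10 among them, and DESeq2 called 22 genes, none of the 10. For Ptpn1 the difference in response, KO minus WT, was 0.09 ± 0.21 log2 units and for Acvr1b -0.17 ± 0.24. Their intervals ran from 0.784-fold to 1.45-fold and from 0.619-fold to 1.28-fold.

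**Figure D4:**
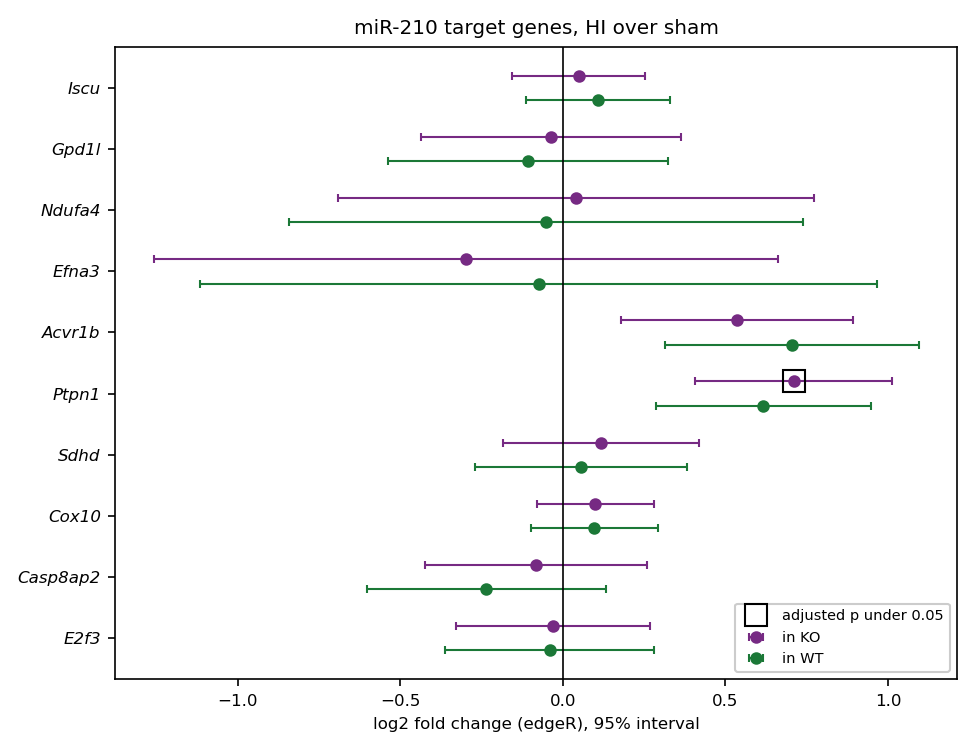
Log2 fold change of HI over sham with its 95% interval for each gene, in KO (purple) and in WT (green); the square marks an adjusted p under 0.05. Ptpn1 and Acvr1b have intervals above 0 in both genotypes and the other 8 genes have intervals that include 0.

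The partners of these genes were read from lists of their pathways, given here without the 10 genes themselves. All 15 tested genes of iron-sulfur cluster assembly, among them Nfs1, the cysteine desulfurase that supplies sulfur, were above 0 in KO over WT in both comparisons, with medians of 0.32 after HI and 0.26 in sham. None was called in either, where 5.96% of all genes were called higher after HI; Nfu1, a carrier of finished clusters, came nearest after HI at 0.34 ± 0.13 (adjusted p = 0.0985). Of 24 cytochrome c oxidase subunits and assembly genes 20 were above 0 after HI and 21 in sham, with medians of 0.34 and 0.41. Pet100, a chaperone of that complex's assembly, was called higher after HI at 0.59 ± 0.16 (adjusted p = 0.0314), with 12.1 ± 1.77 CPM in KO HI and 8.09 ± 0.457 CPM in WT HI (SD, n = 4 each). Of the other 7 genes of succinate dehydrogenase 7 were above 0 after HI and 6 in sham (medians 0.21 and 0.23), and none was called; Sdhb, its iron-sulfur subunit, had 0.36 ± 0.15 after HI. When the 5 neuron-marker-high libraries were dropped, the medians of these 3 lists were 0.15, 0.12 and 0.06 after HI and 0.03, 0.05 and -0.04 in sham. In that fit 1 iron-sulfur and 1 succinate dehydrogenase gene were called higher after HI, where 12.7% of all genes were, and Pet100 was not called. With the covariates the 3 medians were 0.10, 0.06 and -0.02 after HI and 0.12, 0.17 and 0.07 in sham, and 0 genes were called.

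Several signalling partners were called lower in KO after HI, where 6.46% of all genes were called lower and 5.96% higher. Of 12 tested activin and related receptors and SMADs 3 were called lower in KO and 1 higher, with a median of -0.37. Acvrl1, the endothelial receptor ALK1, had 215 ± 55.8 CPM in KO HI and 472 ± 45.2 in WT HI (log2 fold change -1.13 ± 0.29, adjusted p = 0.0255). Bmpr2 (-0.67 ± 0.16) and Smad4 (-0.27 ± 0.07), the common SMAD, were called lower too, and Tgfbr1, the type I receptor for TGF-β, higher at 0.95 ± 0.21 (adjusted p = 0.0159). Of 11 ephrin-A and EphA genes Efna1 (-1.28 ± 0.31) and Epha4 (-0.62 ± 0.13) were called lower, with a list median of -0.56. Efna1 had 39.7 ± 12.4 CPM in KO HI and 96.7 ± 12 in WT HI.

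Among relatives and substrates of PTP1B the leukocyte phosphatase Ptpn6 was called higher after HI at 1.51 ± 0.31 (adjusted p = 0.0120), with 147 ± 48.1 CPM in KO HI and 51.6 ± 21.7 in WT HI. Ptpn12 (-0.62 ± 0.14), Jak2 (-0.45 ± 0.12) and the insulin receptor Insr (-0.85 ± 0.25) were called lower. Of the 11 tested genes of this list 1 was thus called higher and 3 lower. Epas1, which encodes HIF-2α, was the 1 called gene of 9 in the glycerol-3-phosphate dehydrogenase and oxygen-sensing list, with 909 ± 228 CPM in KO HI and 1880 ± 185 in WT HI (log2 fold change -1.04 ± 0.23, adjusted p = 0.0135). E2f1, which drives S phase, was called higher at 0.66 ± 0.14 (adjusted p = 0.0127), 1 of 12 E2F and RB genes. Fas, a death receptor upstream of caspase-8, was called lower at -0.94 ± 0.25 (adjusted p = 0.0283), 1 of 10. These counts stand beside 12.4% of all genes called after HI, 5.96% higher and 6.46% lower. In sham 0 genes of these lists were called.

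After HI the counts of most of these lists moved without the 5 libraries and with the covariates. That of the ephrin list did not, though it had 3 lower with DESeq2, which called 11.5% of all genes lower. In the fit without the 5 libraries 12.7% of all genes were called higher and 10.9% lower, and with the covariates 9.96% and 7.77%. The activin list had 1 higher and 2 lower in both fits, with medians of -0.22 and -0.16, and the ephrin list 2 lower in both (medians -0.41 and -0.40). The PTP1B list had 1 higher in both, with 5 and 4 lower, and the oxygen-sensing list 2 lower in both. The E2F list had 3 higher and 1 lower without the libraries and 4 higher with the covariates, and the caspase-8 list 3 higher and 1 lower in both. As given above, endothelial and pericyte markers were lower and microglia markers higher in KO HI than in WT HI. The part of those shifts in the called genes was not tested.

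A second set of 28 genes that other studies reported as miR-210 targets, listed from general knowledge, held 25 tested genes. After HI 0 were called higher in KO and 2 lower, Smad4 and Igfbp3, a binding protein of insulin-like growth factors with 241 ± 89.5 CPM in KO HI and 933 ± 336 in WT HI (log2 fold change -1.96 ± 0.36, adjusted p = 0.00727). Over all genes 5.96% were called higher and 6.46% lower. The list had 2 higher and 2 lower with DESeq2 and without the 5 neuron-marker-high libraries, and 0 higher and 1 lower with the covariates. Of all genes DESeq2 called 11.4% higher and 11.5% lower. The fit without the 5 libraries called 12.7% and 10.9%, and that with the covariates 9.96% and 7.77%. With all libraries in edgeR the median of the list was -0.03 after HI and -0.15 in sham, where 0 were called. Tfrc, the transferrin receptor, had the smallest p in sham, with 866 ± 311 CPM in KO (n = 4) and 1620 ± 277 in WT (n = 3) and a log2 fold change of -0.90 ± 0.34 (adjusted p = 0.477). Of these 25 genes 9 were above 0 after HI and 8 in sham, against 8 of the 10 genes followed here in each.

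**Figure D5:**
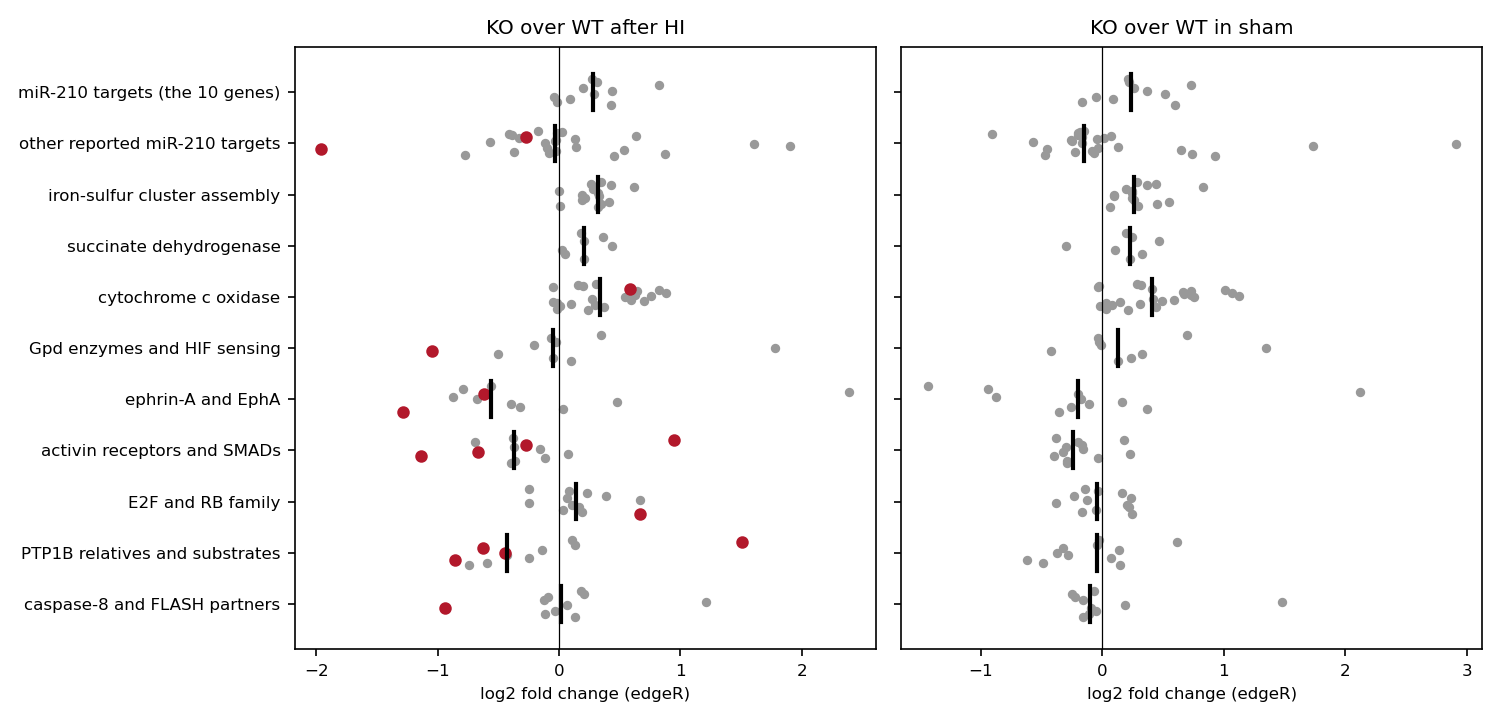
Log2 fold change of KO over WT for every tested gene of the 10 targets and of each partner list (the 10 targets left out of those), after HI on the left and in sham on the right. Red points have an adjusted p under 0.05 and black bars are list medians; none of the 10 targets is red in either panel.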

How the data were processed

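Per the submitters' processing notes, the authors used DESeq2 1.4.5, RSEM 1.3.1, Bowtie, Bowtie2 2.4.4 and HISAT2 2.1.0, and mm39; their roles and order are not stated. The table the authors deposited holds expected counts, not normalized, a unit inferred from its range and from RSEM: 3.12% to 3.92% of values in a library have decimals. Of 65535 lines, 17892 carried values and 47643 were blank, so the table may have been shortened. Gene IDs were matched to symbols with RefSeq names (GRCm38.p6; 17862 matched). Total counts ran from 15436376 to 18118697 per library.

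Counts were rounded, filtered with filterByExpr and fitted over all 15 libraries as 4 group means (edgeR 4.0.16, TMM, glmQLFit and glmQLFTest, R 4.3.3), with Benjamini-Hochberg adjustment over all 14853 tested genes and a threshold of 0.05. Standard errors and 95% intervals were derived from that test. Log2 CPM used a prior count of 2. The code was tested on simulated data. Replicate pairs differed far beyond sampling noise (chi-square over its degrees of freedom 11.7 to 400) so none was counted as a duplicate. Alternatives were DESeq2 1.42.0, limma-voom 3.58.1, fits of 2 groups, no filter, a replicate block, upper-quartile scaling, covariates and left-out libraries. Named genes were all 10 targets and, per partner list, up to 4 called genes or the 1 with the smallest p. The members, lists and alternatives were chosen with earlier results of these data known.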

Additional observations from a re-analysis of the deposited data

Results flagged for a closer look

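Of 30 sets of 4 libraries (10 genes in 3 groups) 2 held a library whose gap to its nearest neighbour took up more of the group's range than the 95% critical value of Dixon's test allows; chance flags about 1 in 20 such sets. Gpd1l had 145 CPM in KO sham 1, against 73.4 to 81.0 CPM in the other KO sham libraries. That library also had the highest neuron markers of all 15, at 6.46 log2 CPM. E2f3 had 34.1 CPM in WT HI 4, against 31.9 to 32.2 CPM in the other WT HI libraries, a small distance in a tight group. Among the 10 genes, no response to HI was called different in KO and WT.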

How the results depend on the processing

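After HI, KO against WT, the number of the 10 genes called was 0, and 2 in a fit of the HI groups alone (Acvr1b, Gpd1l) and without the 5 neuron-marker-high libraries (Gpd1l, Ptpn1). Leaving out single libraries gave 0 to 3, with 3 without KO sham 1 (Acvr1b, Gpd1l, Ndufa4) and 1 without KO HI 2 (Ptpn1). These fits called 13.0%, 23.5%, 24.4% and 12.3% of all genes, against 12.4% with all libraries, so the counts of 2 and 3 of 10 stand beside shares of up to 24.4%. In sham the count was 0 under all 23 alternatives. For HI against sham in WT it was 0, and 2 (Acvr1b, Ptpn1) with DESeq2, in a fit of the 2 groups, with neuron and choroid covariates and without the 5 libraries, 1 (Ptpn1) with upper-quartile scaling, and 0 to 2 without single libraries (2 without KO sham 1, 1 without KO HI 1, KO HI 2 or KO sham 4). For HI against sham in KO it was 1, and 2 (Acvr1b, Ptpn1) with DESeq2, limma-voom, the covariates and without the 5 libraries, 0 in a fit of the 2 groups and with the replicate block, and 1 to 2 without single libraries (2 without KO sham 1). The difference of responses gave 0 under all 22 alternatives run. The causes were not tested. The log2 fold changes of the 10 genes in the 5 comparisons kept their side of the threshold in 1111 of 1140 alternative values, passed it in 27 and lost it in 2, and no called value changed sign.

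Over all genes the count after HI was 1844 in KO against WT, 3399 with DESeq2, 2152 with limma-voom, 21 with the replicate block and 3440 without the 5 libraries; without 1 library it ran from 481 to 3605, the lowest without WT HI 1 and the highest without KO sham 1. The sham comparison gave 2 calls, 0 by limma-voom, 32 by DESeq2, 13 with the covariates and 5 without the 5 libraries. For HI against sham in WT it was 271, 782 with DESeq2, 2443 in a fit of the 2 groups, 1392 with the covariates and 750 without the 5 libraries; in KO it was 1041, then 1932, 16, 2684 and 2458 under the same settings. The difference of responses gave 0, 22 with DESeq2 and 1 with the covariates. Same-numbered libraries deviated from their group means with correlations of -0.784 to 0.793. The negative values, -0.613 and -0.784, both involved KO sham 1. These correlations do not settle whether the numbers pair the samples. The block lowered calls in HI against sham to 16 from 271 in WT and to 73 from 1041 in KO. Ptpn1 in KO had an adjusted p of 0.0914 in that fit. Efna3 had only 19 to 69 counts per library, and the groups hold 3 or 4 libraries each.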
